A study of Mus musculus with 10 samples.

Results

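Solute carriers are membrane proteins that move sugars, amino acids, ions, nucleosides and organic molecules across the cell surface or the mitochondrial membrane. Their transcripts were measured here in the PVN, the paraventricular part of the mouse hypothalamus, from which the pituitary stress response is driven. Members were the array spots whose deposited name begins with the words solute carrier family, without the astrocyte glutamate carriers Slc1a2 and Slc1a3 and the GABA carrier Slc6a11. This gave 158 spots of 22818 that were not controls. Spots with an identical name were grouped, which gave 114 names of 14778 names in all. A current symbol could be given to 107 of the names, and the other 7 keep the name in the files. By substrate, the 114 names comprised 9 of glucose and sugar carriers, 20 of amino acid and neurotransmitter carriers, 33 of ion carriers, 12 of mitochondrial carriers and 37 of other organic carriers, beside 3 proteins that bind a carrier.

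Litters of mice were allotted at random to 24 h of separation from the mother or to none, and all pups of a litter were killed at the time of testing. The PVN was punched from frozen brains of 6 animals per group, punches of 2 animals were joined, and amplified RNA of the 3 resulting samples was joined into 1 pool per condition. The separated and the non-separated pool were labelled with Cy3 and Cy5 and hybridised together on 10 spotted arrays of 2 colours. In the Cy5 orientation (5 arrays) Cy5 marked the separated pool, and in the Cy3 orientation (5 arrays) Cy3 did. No agent or allele is named for either group, and the sources used here do not give strain, age or sex. The arrays are technical repeats of 1 pair of pools, so their spread is array error, no spread between animals or litters could be measured, and every p-value and interval below covers array error only. In pooled punches, fewer cells of a type and less RNA per cell cannot be told apart.

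Carriers of these families supply the brain in distinct ways. Facilitative glucose transporters such as Slc2a1 bring glucose over the blood-brain barrier, and monocarboxylate carriers such as Slc16a1 bring lactate and ketone bodies, which are major fuels of the suckling brain. Cation-chloride cotransporters set the chloride gradient on which inhibitory transmission depends, and mitochondrial carriers exchange nucleotides, citrate and amino acids between mitochondrion and cytosol.

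Each value is the log2 ratio of the separated over the non-separated pool, taken as the average of the 2 orientation means, with the SD over 10 arrays. Directions rest on the dye names in the labels. The scanner files number the channels the other way round, and the deposited value table runs opposite to the ratios given here on all 10 arrays (correlation -0.96 to -0.92); if the labels' first channel were the scanner's first channel, every direction below would reverse. A name was read from its brightest spot. It was called higher or lower when it differed at least 1.5-fold (0.58 on the log2 scale) and had the same sign on all 10 arrays. A name counted as above empty spots when either channel exceeded the 95th percentile of that array's empty spots on at least 8 of 10 arrays. This bar was high, because that percentile lay between 670 and 2913 in Cy5, above the median spot of 286 to 529. By it 17 of 114 solute carrier names (14.9%) were above empty spots, against 13.8% of all names. Both channels of 101 of the 114 names (88.6%) nevertheless exceeded the median empty spot on at least 8 arrays, against 87.9% of all names. Raw Cy5 over Cy3 ratios stood apart on the third array of each orientation, and the fourth array of the Cy3 orientation had a wider spread of ratios than its group.

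Of the 114 solute carrier names, 0 were called higher and 0 lower, and class medians lay between -0.09 and 0.11. In the background, 0.0677% of 14778 names were called higher and 0.189% lower, 0.257% in all. No solute carrier name had 1 sign on all 10 arrays at any size, against 1.52% of all names (0.46% above 0 and 1.06% below). Among the 158 spots, 0 passed an adjusted p of 0.05 in limma (Benjamini-Hochberg over 22818 spots, of which 0.364% passed), and the lowest adjusted p was 0.0809. At an unadjusted p under 0.05 stood 24 spots, which is 15.2% against 15.1% of all spots. The median over all 114 names was 0.01, with 60 names above 0 and 54 below, and on single arrays it ranged from -0.03 to 0.08. The median over all names was also 0.01. Without the 3 arrays that stood apart, 0 names were called either way and 3 (Slc16a1, Slc31a2 and Slc5a5, all above 0) had 1 sign on the remaining arrays.

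Class medians lay close to 0 in the plot of the log2 ratio of each name by substrate class. The median was -0.01 for glucose and sugar carriers, 0.00 for amino acid and neurotransmitter carriers, -0.03 for ion carriers and -0.02 for mitochondrial carriers. The 37 other organic carriers had a median of 0.11, with 24 names above 0 and 13 below, and their median was above 0 on 9 of 10 arrays. The 3 associated proteins had a median of -0.09.

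**Figure D1:**
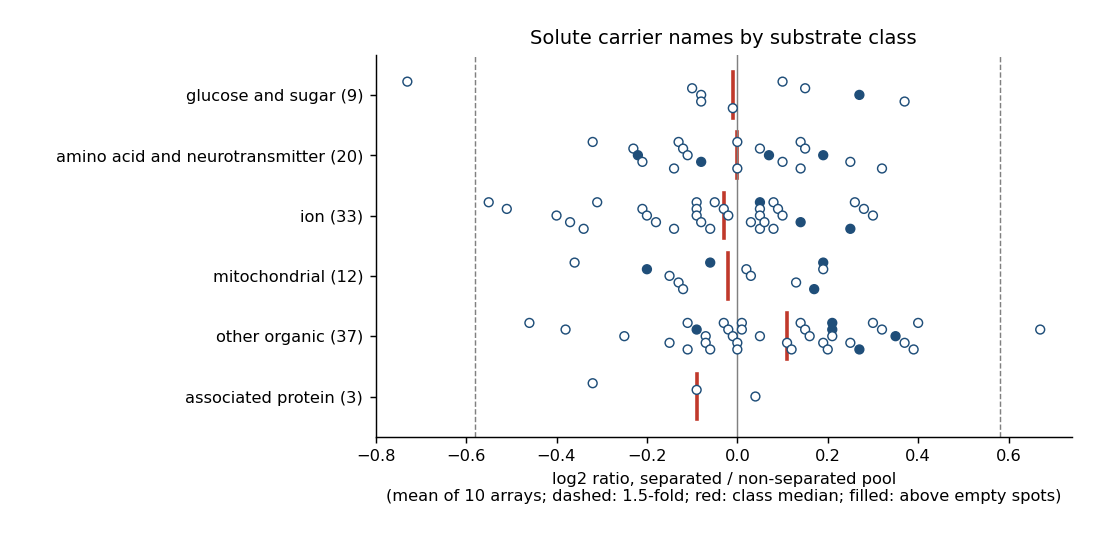
Log2 ratio of the separated over the non-separated pool (x axis, mean of 10 arrays) for each of the 114 solute carrier names, in rows by substrate class, with the number of names in brackets. Points are filled where the name was above empty spots, red bars are class medians and dashed lines mark 1.5-fold; Slc2a10 at the left lies beyond a dashed line, and the class medians lie near 0.

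The promoters of Slc16a1 and Slc20a1 are shown because Slc20a1 held the 1 spot of uniform sign and Slc16a1 was among the names with 9 of 10 arrays above 0. Windows run from 250 bases before to 50 bases after a start site, from RefSeq on GRCm38.p6. Capitals mark the GC box GGGCGG, the E-box CACGTG and the steroid receptor half-site TGTTCT, each searched on both strands; none of these letter runs overlaps another here. Windows were found for 85 of the carriers.
Slc16a1, chr3:104638414-104638713, plus strand: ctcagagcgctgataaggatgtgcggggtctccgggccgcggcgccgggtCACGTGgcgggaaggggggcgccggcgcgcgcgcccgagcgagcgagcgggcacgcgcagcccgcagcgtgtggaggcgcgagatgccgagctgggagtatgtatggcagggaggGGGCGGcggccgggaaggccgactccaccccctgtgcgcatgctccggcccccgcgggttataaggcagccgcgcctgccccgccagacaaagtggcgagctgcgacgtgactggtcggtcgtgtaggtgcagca
Slc20a1, chr2:129198523-129198822, plus strand: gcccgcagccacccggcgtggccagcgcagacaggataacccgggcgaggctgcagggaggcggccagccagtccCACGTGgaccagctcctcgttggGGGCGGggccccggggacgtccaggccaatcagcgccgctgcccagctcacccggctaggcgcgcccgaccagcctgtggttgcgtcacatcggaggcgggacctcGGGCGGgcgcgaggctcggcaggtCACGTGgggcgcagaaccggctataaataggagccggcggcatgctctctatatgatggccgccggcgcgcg
Slc20a1, second start, chr2:129206846-129207145, plus strand: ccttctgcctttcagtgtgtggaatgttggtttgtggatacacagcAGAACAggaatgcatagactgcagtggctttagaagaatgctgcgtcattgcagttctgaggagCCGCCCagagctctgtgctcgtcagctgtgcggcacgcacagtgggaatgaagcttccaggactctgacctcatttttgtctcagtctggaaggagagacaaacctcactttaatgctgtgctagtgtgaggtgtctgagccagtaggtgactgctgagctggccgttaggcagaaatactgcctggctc
The first window had a GC content of 73.7% and held 1 GC box and 1 E-box, the second had 73% with 2 of each, and the third had 52% with 1 GC box and 1 half-site. Over 32851 windows, 35.7% held the GC box, 7.15% the E-box and 19% the half-site. The 120 windows of the 85 carriers held the GC box in 60%, the E-box in 16.7% and the half-site in 16.7%, with a median GC content of 60.2% against 52.7% in all windows.

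Among glucose and sugar carriers, Slc2a10, a facilitative glucose transporter of intracellular membranes, had the most negative mean of all 114 names at -0.73 ± 0.64 (SD, n = 10 arrays). In the Cy5 orientation its values were -0.64, -1.19, -1.07, -0.79 and -0.47. In the Cy3 orientation they were -0.39, 0.31, -0.83, -2.04 and -0.17. It lay below 0 on 9 of 10 arrays and was therefore not called (limma adjusted p = 0.123). Without the second array of the Cy3 orientation its mean was -0.85; that array held the 1 positive reading, so leaving it out meets the sign rule by construction. Its spot was among the dim ones, at 0.097 of the 95th percentile of empty spots, and exceeded the median empty spot in both channels on 7 arrays. Past 1.5-fold in mean, whatever the signs of their arrays, lay 2 of the 114 names and 0.907% of all names. No fold is given for Slc2a10, because neither pool rose above the 95th percentile of empty spots. With median centring in place of loess it met the call rule at -0.67.

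The main glucose transporters of the barrier and of neurons were dim and near 0. Slc2a1, the barrier transporter, was at -0.01 ± 0.41 and Slc2a3, the neuronal one, at 0.10 ± 0.72, with a second Slc2a3 spot at -0.19. Slc2a2, Slc2a4 and Slc2a5 lay between -0.10 and -0.08. Slc5a1, a sodium-coupled glucose transporter, was the 1 member of the class above empty spots and was at 0.27 ± 0.39. Its mean was 0.58 in the Cy5 orientation and -0.05 in the Cy3 orientation. A spot named as like the glycerol-3-phosphate transporter of family 37, member 1, read 1.12 and -0.38 in the 2 orientations, and its dye term passed in limma (adjusted p = 0.0078). A second, dimmer spot of that name was at 0.05 ± 0.78. The spot named for member 1 itself was at 0.15 ± 0.20.

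Some amino acid carriers gave tight values, although the median SD of the class was 0.56, against 0.50 over all names. Slc7a5, the large neutral amino acid transporter that also carries thyroid hormone, read 0.09, -0.02, -0.08, 0.13 and 0.09 in the Cy5 orientation and -0.29, -0.10, -0.33, -0.16 and -0.15 in the Cy3 orientation. Its mean was -0.08 ± 0.16, with a 95% interval of -0.25 to 0.09. Slc3a2, the heavy chain that brings Slc7a5 to the membrane, was at 0.00 ± 0.59, and its second spot at -0.38. Slc38a1, a glutamine carrier of neurons, was at -0.22 ± 0.19 with 8 of 10 arrays below 0 (adjusted p = 0.261). Its 2 dimmer spots read -0.10 and 0.25. Slc38a4, of the same family, was at 0.07 ± 0.22.

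Slc6a9, the glycine transporter of glia, had the brightest spot of the whole set at 24.2 times the 95th percentile of empty spots, and was at 0.19 ± 0.35. Its 4 other spots, none above empty spots, lay between -0.30 and 0.05. Slc17a6, the vesicular glutamate transporter of hypothalamic excitatory neurons, split by dye. In the Cy5 orientation it read -0.12, -0.21, -0.62, -0.25 and 0.30, and in the Cy3 orientation 0.98, 1.04, 0.14, 0.95 and 0.93. The orientations overlapped on 2 arrays, the mean was 0.32 ± 0.62, and the dye term passed in limma (adjusted p = 0.0344). A second, dimmer Slc17a6 spot was at 0.03 ± 0.68. The neuronal glutamate carrier Slc1a1 was at -0.11 ± 0.31 and the neutral amino acid carrier Slc1a4 at -0.12 ± 0.60. Slc7a10, a small neutral amino acid carrier with 4 spots, read 0.11 to 0.17 on all 4, with SDs over arrays of 0.36 to 1.07.

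**Figure D2:**
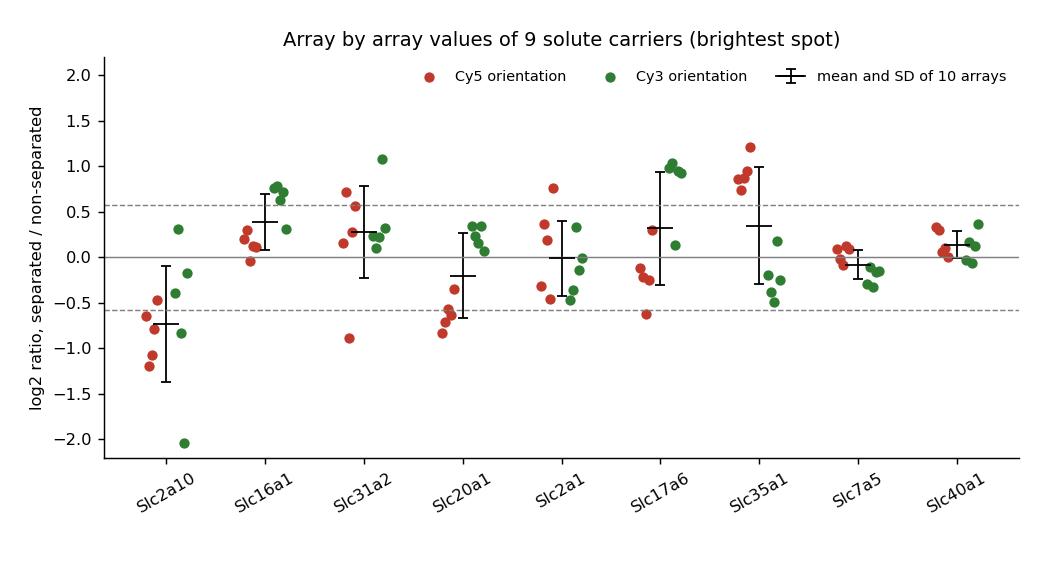
Log2 ratio (y axis) on each of 10 arrays for 9 solute carriers, red for the 5 arrays of the Cy5 orientation and green for the 5 of the Cy3 orientation, with the mean and SD in black and dashed lines at 1.5-fold. Slc2a10 lies below 0 on 9 arrays, Slc17a6, Slc35a1 and Slc20a1 split by orientation, and Slc7a5 and Slc40a1 stay near 0.

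The 3 ion carriers above empty spots had a median of 0.14. Slc12a3, the thiazide-sensitive sodium-chloride cotransporter, read 0.08, -0.03, -0.33, 0.02 and 0.11 in the Cy5 orientation and 0.06, 0.09, 0.13, 0.01 and 0.35 in the Cy3 orientation, a mean of 0.05 ± 0.17. Slc40a1, the iron exporter ferroportin, was at 0.14 ± 0.15, with orientation means of 0.16 and 0.12. Slc34a1, a sodium-phosphate cotransporter, was at 0.25 ± 0.51 (95% interval 0.05 to 0.46, limma adjusted p = 0.229) from means of 0.69 and -0.19, and its second bright spot was at -0.11. The chloride carriers of inhibitory transmission were under the empty-spot bar: Slc12a2, which loads chloride into neurons, was at -0.18 ± 0.38, and Slc12a5, which extrudes it, at -0.34 ± 0.62. Slc12a5 read 0.10 in mean in the Cy5 orientation and -0.78 in the Cy3 orientation.

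Slc20a1, a sodium-phosphate carrier, held the 1 spot of 158 with a uniform sign on all 10 arrays, against 1.32% of all spots. The spot was dim, at 0.527 of the 95th percentile of empty spots, and was above empty spots on 2 of 10 arrays. That spot read -0.40, -0.13, -1.19, -0.36 and -0.40 in the Cy5 orientation and -0.34, -0.22, -0.63, -0.59 and -0.10 in the Cy3 orientation, a mean of -0.44 ± 0.32. The brighter spot of the same name read -0.62 and 0.23 in the 2 orientations and averaged -0.20 ± 0.47. Zinc and copper carriers differed among themselves in mean and in spread. Zinc exporters Slc30a4 and Slc30a1 were at -0.55 ± 0.75 and -0.37 ± 0.35, and the vesicular zinc carrier Slc30a3 was at -0.02 ± 0.42. Slc31a2, a copper carrier, lay above 0 on 9 arrays at 0.28 ± 0.51. The bicarbonate carrier Slc4a4 was at -0.09 ± 0.52, with all 5 arrays below 0 in the Cy5 orientation and all 5 above 0 in the Cy3 orientation. No carrier named in this paragraph met the bar of empty spots.

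Mitochondrial carriers had the narrowest range of the 4 classes with over 10 names, from -0.36 to 0.19. Slc25a12, the aspartate-glutamate carrier of the malate-aspartate shuttle, read 0.12, -0.13, -0.40, 0.08 and -0.31 in the Cy5 orientation and 0.77, 0.44, 0.63, 0.30 and 0.36 in the Cy3 orientation. The orientations did not overlap, the mean was 0.19 ± 0.39, and the second spot was at -0.02. Slc25a5, an ADP/ATP exchanger, was at -0.06 ± 0.32, with a second bright spot at -0.14, and its relative Slc25a4 at -0.15 ± 0.46. The citrate carrier Slc25a1 was at -0.20 ± 0.35, with a second, dimmer spot at 0.08, and the ornithine carrier Slc25a15 at 0.17 ± 0.38. In this class 11 of 12 names had an interval within 1.5-fold either way.

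Among other organic carriers, Slc16a1, the monocarboxylate carrier whose promoter is printed above, read 0.20, 0.30, -0.04, 0.13 and 0.11 in the Cy5 orientation and 0.76, 0.79, 0.63, 0.72 and 0.31 in the Cy3 orientation. All values but 1 were above 0, the mean was 0.39 ± 0.31, and the orientations did not overlap. Its limma adjusted p was 0.0877 and it was above empty spots on 7 arrays, 1 short of the bar. A second Slc16a1 spot was at 0.00. Basigin and embigin, the chaperones of monocarboxylate carriers, were at -0.08 ± 0.45 and -0.19 ± 0.58, both under the bar. Slc29a4, a monoamine and nucleoside carrier, was at -0.09 ± 0.25 with both orientation means at -0.09.

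The brightest other organic carriers split by dye. Slc35a1, the Golgi CMP-sialic acid carrier, read 0.86, 0.74, 0.87, 0.95 and 1.21 in the Cy5 orientation and -0.19, -0.38, -0.49, 0.18 and -0.25 in the Cy3 orientation. Its dye term had an adjusted p of 0.00795 and its mean was 0.35 ± 0.64, or 1.27-fold. Slco3a1, an organic anion carrier, gave means of 0.79 and -0.26, and a spot named as like organic cation transporter 2 of family 22 gave 0.66 and -0.23. A second, dimmer Slco3a1 spot was at 0.12 ± 0.72.

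All 17 carriers above empty spots had a 95% interval within 1.5-fold either way, against 95.5% of the 2035 names above empty spots, as the plot of intervals shows. Over all 114 names 86 (75.4%) had such an interval, against 74.1% of all names. For the remaining names the interval reached beyond 1.5-fold, so a difference of that size between these pools was not excluded at this array error. The median of the 17 names was 0.17, with 12 above 0 and 5 below, against 0.03 for all names above empty spots. That median was 0.24 in the Cy5 orientation and -0.10 in the Cy3 orientation.

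**Figure D3:**
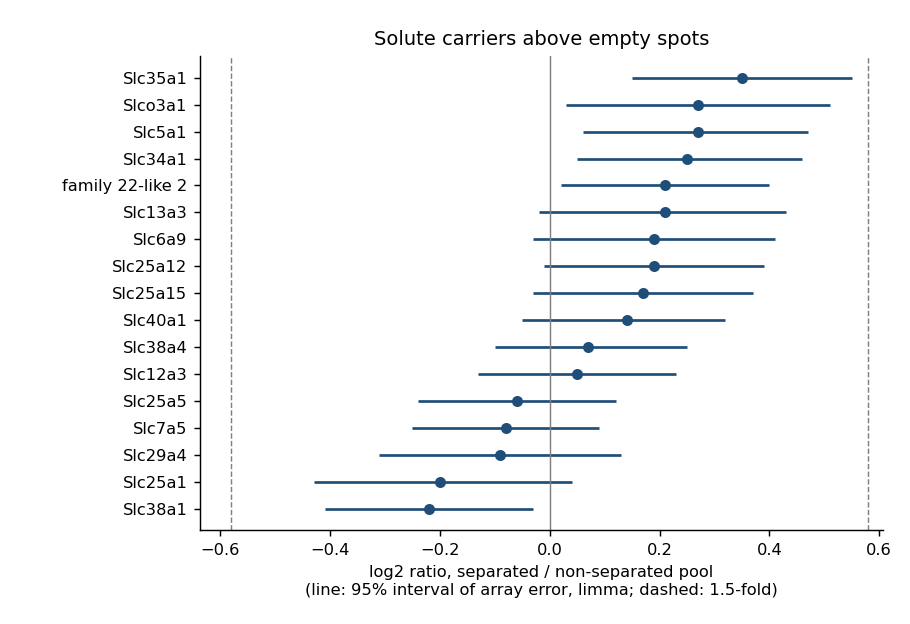
Log2 ratio (x axis) with the 95% interval of array error from limma for the 17 solute carriers above empty spots, with dashed lines at 1.5-fold. Every interval lies between the dashed lines. Those of Slc35a1, Slco3a1, Slc5a1, Slc34a1, the family 22-like spot and Slc38a1 do not reach 0. This matches an unadjusted limma p under 0.05, met by 6 of the 17 and by 700 of 2035 names above empty spots. The lowest adjusted p of the 17 was 0.127. Of the names listed, only Slc38a1 had orientation means of the same sign.

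Many carriers read differently in the 2 dye orientations. The 2 orientation means had opposite signs in 69 of 114 names (60.5%), against 56.9% of all names. The dye term passed an adjusted p of 0.05 in limma for 11 names (9.65%), against 6.39% of all names, and for 4 of the 17 above empty spots (23.5%, against 24.2%). Counted by spot it passed for 12 of 158 (7.59%), against 5.49% of all spots. The 4 names were Slc35a1, Slco3a1, Slc34a1 and the family 22-like spot. Over the 114 names the orientation means correlated at -0.23, over the 17 above empty spots at -0.59 and over all names at -0.16, with the points sharing the same 10 arrays. Each orientation was scanned on a day of its own, so dye orientation and scan day cannot be told apart. The ion class read -0.12 in median in the Cy5 orientation and 0.10 in the Cy3 orientation.

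**Figure D4:**
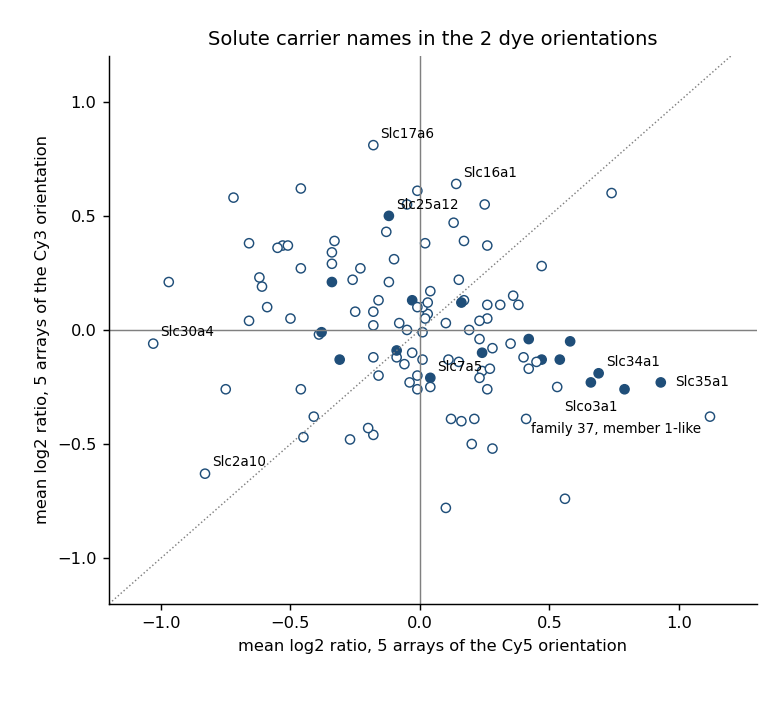
Mean log2 ratio of each of the 114 solute carrier names over the 5 arrays of the Cy5 orientation (x axis) and the 5 of the Cy3 orientation (y axis), filled where the name was above empty spots. Slc2a10 lies near the dotted line of equal means, while Slc35a1, Slco3a1 and Slc34a1 lie far to the right of it at values under 0 on the y axis.

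Spots of the same name did not always read alike. Of 34 names with more than 1 spot, which together held 78 spots, 17 had spots of both signs. The median gap between the lowest and the highest spot of a name was 0.21, and the largest, for the zinc importer Slc39a3, was 0.56, between -0.40 and 0.16. The sources used here do not say whether such spots carry the same transcript.

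**Figure D5:**
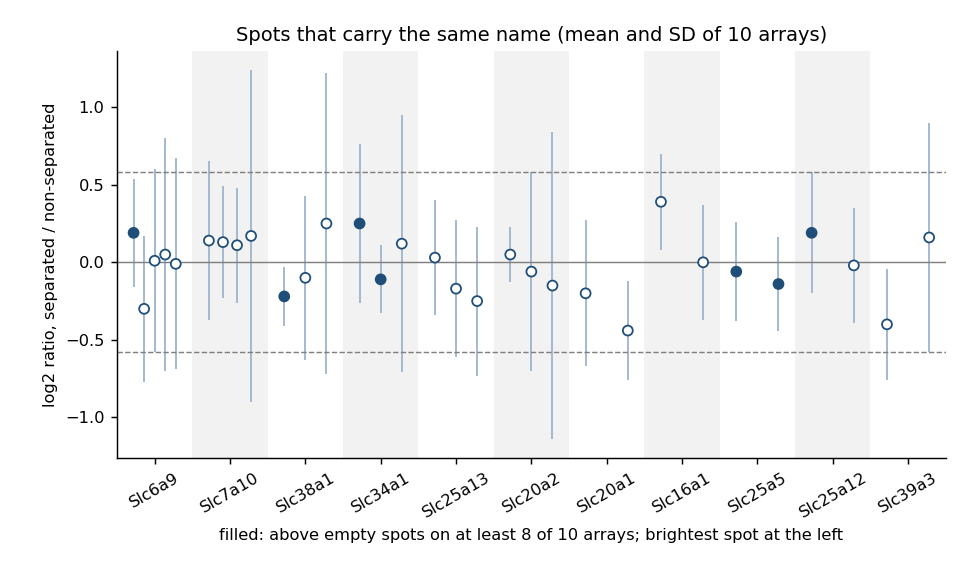
Mean log2 ratio and SD over 10 arrays (y axis) of every spot of 11 solute carriers, brightest spot at the left of each group, filled where the spot was above empty spots. Slc38a1, Slc34a1, Slc6a9 and Slc39a3 are among those with spots on both sides of 0, and the 4 spots of Slc7a10 lie between 0.11 and 0.17.

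Pumps and other transporters were counted in the same way. Of 55 names of pump subunits, ATP-binding cassette transporters, aquaporins and the 2 chaperones, none was called, and their median was -0.05. The 14 proton pump subunits had a median of -0.12, and 1 of them, V0 subunit B, lay below 0 on all 10 arrays at -0.50 ± 0.19. The 4 sodium-potassium pump subunits, which maintain the gradients used by many carriers, had a median of 0.03.

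Cell type markers were set beside these values. Of 8 astrocyte markers 5 were above empty spots, 2 were called lower, and the median of the 8 was -0.41, between -0.77 and -0.08 on single arrays. Means were below 0 for 7 of the 8. The brightest, Fabp7, was at 0.19 ± 0.15 with all 10 arrays above 0. As examples of carriers known from astrocytes, Slc38a3, a glutamine carrier, was at 0.00 ± 0.36, Slc4a4 at -0.09 ± 0.52 and Slc6a9 at 0.19 ± 0.35. These examples were picked and are not a full list, so they do not show how carriers of astrocytes read as a set. The spots read for Slc38a3 and Slc4a4 were above empty spots on no array. The 4 dimmer Slc6a9 spots lay between -0.30 and 0.05. Medians were 0.07 for 6 oligodendrocyte markers, -0.10 for 6 blood vessel markers, 0.33 for 2 choroid plexus markers, -0.07 for 4 meninges markers, -0.05 for 3 blood markers and 0.07 for 4 microglia markers. Most of these markers were under the empty-spot bar. The 1 meninges marker above it, Ptgds, was at -0.88 ± 0.54 with 1 of 10 arrays above 0. The 1 blood marker above it, the haemoglobin gene Hbb-b1, was at 0.45 ± 0.16 with all 10 arrays above 0. The myelin gene Mbp was at -0.43 ± 0.27 with all 10 arrays below 0. Mobp and Cnp, the other oligodendrocyte markers above the bar, were brighter and did not share that direction. They were at 0.20 ± 0.47 and 0.25 ± 0.89, each with 5 of 10 arrays above 0. The part of cell content in the carrier values was not tested. Of the PVN markers, Avp, Oxt, Trh and Sst were on the array under the names searched and none was above empty spots, so the label of the tissue could not be checked by them.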

How the data were processed

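Expression was measured in 1 separated and 1 non-separated RNA pool of mouse PVN punches on 10 arrays of 24192 spots in 48 blocks. Spot intensity and local background were deposited on a linear scale; per the file headers, no background had been subtracted. A value table of log2 ratios was also deposited by the authors for 19025 spots, with normalization not given in the sources used here and column medians of 0.0011 to 0.0094; it served as an alternative. Its scale was taken as log2 from the table, and its direction from the correlation with the scanner ratios.

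Here limma 3.58.1 (R 4.3.3) was used for normexp background correction with an offset of 50, followed by global loess on each array, in which the 1374 control spots (1170 of them empty) had weight 0. The fit over 22818 spots held a pool term and a dye term, and the script was tested on simulated data. Symbols came from a list made by hand or, for other names, from the family and member number where RefSeq held that symbol. Clone sequences were not checked. The members, lists and rules were chosen with earlier results of these data known. The genes named are those of 1 sign on at least 9 arrays, the 3 brightest of each class and a list of 25 carriers, of which 17 were members; together these are 35 names. Of these, 2 are not reported here but enter every count and median. Slc20a1, Slc25a15, Slc29a4, Slc2a2, Slc2a4, Slc2a5, Slc30a1, Slc30a4, Slc38a1, Slc39a3 and Slc7a10 fall outside that rule and were chosen after their values were seen. Arrays with the same replicate number did not pair (correlations -0.027 to 0.022). Median spot intensity was 286 to 529 in Cy5 and 436 to 1011 in Cy3, and the number of arrays limits the precision. The alternatives were no background correction, print-block loess, median centring, the authors' table, the mean over spots, names above empty spots, each orientation alone, each array left out, a replicate block, and, added after seeing the data, no use of the 3 arrays that stood apart.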

Additional observations from a re-analysis of the deposited data

Results flagged for a closer look

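In 88 groups of 5 arrays, each of a named carrier, a class median or an array measure, 7 had 1 array far from the other 4, where chance gives about 4.4. Slc12a2 read -0.83 on the first array of the Cy3 orientation, against -0.09 to 0.01 on the others. Slc17a6 read 0.14 on the third array of the Cy3 orientation, against 0.93 to 1.04. Slc31a2 read 1.08 on the fourth array of the Cy3 orientation, against 0.10 to 0.32. The median of the other organic carriers was 0.23 on the first array of the Cy5 orientation, against 0.09 to 0.12.

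Among the array measures, the median raw log2 ratio of Cy5 over Cy3 was -1.51 on the third array of the Cy5 orientation, against -1.18 to -1.05. The same measure was 0.28 on the third array of the other orientation, against -1.17 to -0.79. The median absolute deviation of the log2 ratios was 0.57 on the fourth array of the Cy3 orientation, against 0.48 to 0.50. The third array of the Cy3 orientation is thus the array of the low Slc17a6 value, and the fourth that of the high Slc31a2 value. The part of these array measures in the carrier values was not tested.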

How the results depend on the processing

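The data are 1 pair of pools, so no setting bears on animals. The values of single named carriers moved by less than the SD over arrays, but for several settings this holds by construction. For 1 orientation alone, that SD contains the gap between orientations. The replicate block and the bar of empty spots leave each value unchanged. Leaving out arrays moves a mean by only a part of the spread that the SD holds. Only the other normalizations, the authors' table and the mean over spots could have moved a value further. In the Cy5 and the Cy3 orientation alone, Slc17a6 read -0.18 and 0.81, Slc12a5 0.10 and -0.78, and Slc35a1 0.93 and -0.23. The counts of 0 calls held under no background correction, print-block loess, the authors' table and the mean over spots. The authors' table gave a value for 29 of the 35 named carriers. Under the bar of empty spots the counts held by construction, because it keeps a part of the same names with the same values. With median centring in place of loess, 1 name was called higher, 1 lower and 3 had 1 sign on every array; the cause was not tested. With the arrays of the Cy5 orientation alone, 5 names were called higher, 7 lower and 29 had 1 sign; with the Cy3 orientation alone these were 4, 1 and 19, where 5 arrays need to share a sign in place of 10. With the Cy3 orientation alone the median was -0.11 for amino acid carriers and 0.10 for ion carriers. Among names above empty spots the median was 0.17 for all carriers, 0.27 for glucose carriers, of which 1 was left, 0.14 for ion carriers and 0.21 for other organic carriers. Leaving out each array in turn gave 0 to 1 names called higher, 0 to 1 called lower, 0 to 2 of 1 sign on every array and 0 to 1 spots past the adjusted p of 0.05 in limma. The higher call and the limma spot came without the first array of the Cy5 orientation, and the lower call without the second of the Cy3 orientation; each was the 1 array of contrary sign, so the sign rule was then met by construction. With the replicate block, which averages the 2 arrays of each number, 1 name was called higher, 1 lower, and 22 had 1 sign in all 5 pair means. Without the 3 arrays that stood apart, chosen after seeing the data, 3 names had 1 sign on every array. Most carriers lay under the 95th percentile of empty spots, which limits what their ratios can show.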
